A study of Mus musculus with 2 samples.

Results

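The cells described here are maturing B cells of the mouse dural meninges that carry Ms4a1, Fcmr, Bank1, Ccr7 and Tnfrsf13c transcripts. They are the cells that the authors' deposited annotation of single-cell data numbers as cluster 2. They are 1277 of 12544 annotated cells, 666 of them from the KO library and 611 from the het library. Dural meninges, the outermost membrane around the brain, were taken at postnatal day 14. The comparison addresses what loss of IL-33, an alarm cytokine of stromal cells, does to the cells of this tissue.

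KO mice carry an H2B-mCherry allele on both copies of Il33 (Il33mcherry/mcherry) and are IL-33 deficient. Het controls carry the same reporter on 1 copy (Il33mcherry/+), so both groups hold the reporter and the controls have 1 intact copy. For each genotype and sex the tissue of 5 to 8 mice was combined, digested at 37 degrees Celsius and sorted. CD45+CD11b- cells, gp38+CD31- stromal cells and unselected viable cells were mixed 1:1:2. There is 1 library per genotype, so no test between genotypes was possible and no p-value is given. Intervals are exact 95% intervals that cover counting error only, and genotype, animals, sort and preparation cannot be told apart.

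B cells leave the bone marrow as immature cells and pass through transitional stages before they become naive follicular or marginal zone cells. Cd93 marks immature and transitional cells, while Fcer2a, which encodes the IgE receptor CD23, is gained as follicular cells mature. Along the same path precursors lose the recombinase Rag1 and the IL-7 receptor and gain the BAFF receptor Tnfrsf13c, the IgM receptor Fcmr, the chemokine receptor Ccr7 and MHC class II. MHC class II presents peptides to CD4+ T cells, with the invariant chain Cd74 as its chaperone.

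Promoters of 6 of the 10 genes of the MHC class II list, each with a single RefSeq entry (build GRCm38.p6), were read. Cd74, also of this list, was left out beforehand. The promoters are shown because class II genes were among those with the largest ratios to the other B-lineage clusters and also varied inside cluster 2. Each line gives the 130 bases just before the RefSeq transcription start, 5′ to 3′ on the strand of the gene. Capitals mark matches to 3 motifs that were searched on both strands. The first is ATTGG, the core of the Y box of class II promoters, which reads CCAAT on the opposite strand. Upstream of it class II promoters have an X box, for which the motif AGCAAC was searched, and the other motif searched was GATGATG.
H2-Aa, chr17:34287824-34287953, minus strand: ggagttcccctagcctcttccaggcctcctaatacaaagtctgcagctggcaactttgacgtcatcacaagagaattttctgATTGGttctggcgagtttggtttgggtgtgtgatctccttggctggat
H2-Eb1, chr17:34305737-34305866, plus strand: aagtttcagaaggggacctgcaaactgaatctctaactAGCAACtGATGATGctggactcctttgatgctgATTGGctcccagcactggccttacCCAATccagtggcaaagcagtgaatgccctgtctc
H2-DMb1, chr17:34153061-34153190, plus strand: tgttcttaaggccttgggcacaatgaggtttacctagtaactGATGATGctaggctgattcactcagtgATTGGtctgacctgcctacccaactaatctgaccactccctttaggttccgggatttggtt
H2-DMb2, chr17:34145119-34145248, plus strand: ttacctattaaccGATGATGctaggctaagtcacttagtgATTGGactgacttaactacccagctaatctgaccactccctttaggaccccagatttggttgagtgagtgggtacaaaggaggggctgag
H2-Oa, chr17:34092249-34092378, plus strand: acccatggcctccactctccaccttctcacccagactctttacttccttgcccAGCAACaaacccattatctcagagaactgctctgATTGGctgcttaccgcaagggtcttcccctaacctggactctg
H2-Ob, chr17:34238775-34238904, plus strand: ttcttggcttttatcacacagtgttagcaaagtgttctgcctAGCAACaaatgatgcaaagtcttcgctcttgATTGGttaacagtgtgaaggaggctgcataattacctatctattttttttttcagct

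ATTGG stood in 6 of these 6 windows, against 22.4% of 32851 windows of the same length. It lay 48 bases before the start in H2-Aa, 59 in H2-Eb1, 61 in H2-DMb1, 90 in H2-DMb2, 43 in H2-Oa and 57 in H2-Ob, and H2-Eb1 held another match on the opposite strand. AGCAAC stood in 3 of 6 windows, those of H2-Eb1, H2-Oa and H2-Ob, against 6.85% of all windows. GATGATG stood in 3 of 6, those of H2-Eb1, H2-DMb1 and H2-DMb2, against 1.57% of all windows, and no match overlapped another. These matches describe the letters of the windows and show no binding.

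The library totals bear on depth. The KO matrix held 12046 barcodes, of which 6594 were annotated, and the het matrix 10936, of which 5950 were annotated. A cluster 2 cell had a median of 4645 UMIs (unique molecular identifiers, each 1 captured transcript) and 1700 genes in KO and of 4540 UMIs and 1685 genes in het, well under the 12203.5 and 12746.5 UMIs of the median annotated cell of the same libraries. The summed depth was 3539957 UMIs in KO and 3304276 in het. No cell barcode of cluster 2 was shared by the libraries, against 14 over all annotated cells. Il33 itself, the targeted gene, had 24.5 CPM (the UMIs of a gene scaled to one fixed total for each cluster and library) in KO and 109.6 CPM in het in cluster 0, the cluster where it was highest in both libraries. In cluster 2 it had 2 UMIs in KO and 7 in het, at the limit of detection, so these cells check the label in neither direction.

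The marker genes fitted the label. Ms4a1, the B cell surface protein CD20 (chr19:11249675-11266241, mm10), had 2830 CPM in KO and 2833 CPM in het and a UMI in 99.7% of KO and 99.5% of het cells. Fcmr (chr1:130865669-130880791) had 651 CPM in KO and 617 CPM in het, and Bank1, a scaffold protein of B cell receptor signalling (chr3:136053363-136326066), had 316 CPM in KO and 311 CPM in het. Ccr7 (chr11:99144196-99155077) had 668 CPM in KO and 628 CPM in het, and Tnfrsf13c (chr15:82221743-82224369) had 429 CPM in KO and 460 CPM in het. Each of the 5 was higher in cluster 2 than in any other of the 22 clusters, in both libraries.

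The next highest cluster differed between the markers. For Ms4a1 it was cluster 1, with 391 CPM in KO and 436 CPM in het, and for Ccr7 it was cluster 14, with 281 CPM in KO and 270.3 CPM in het. Tnfrsf13c was the least exclusive, with 232 CPM in KO and 263 CPM in het in cluster 1. At least 4 of the 5 markers had a UMI in 80.3% of KO and 79.1% of het cells of cluster 2, and in 9.05% of KO and 9.60% of het cells of cluster 1. With every cell thinned to 2000 UMIs, an Fcmr UMI was expected in 60.8% of KO and 59.6% of het cells of cluster 2. The same share in cluster 0, rich in stromal transcripts, with medians of 18094 and 19085 UMIs, which should lack Fcmr, was 0.329% in KO and 0.353% in het. Since the authors clustered these cells on their expression, the levels describe the cluster and test nothing.

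**Figure D1:**
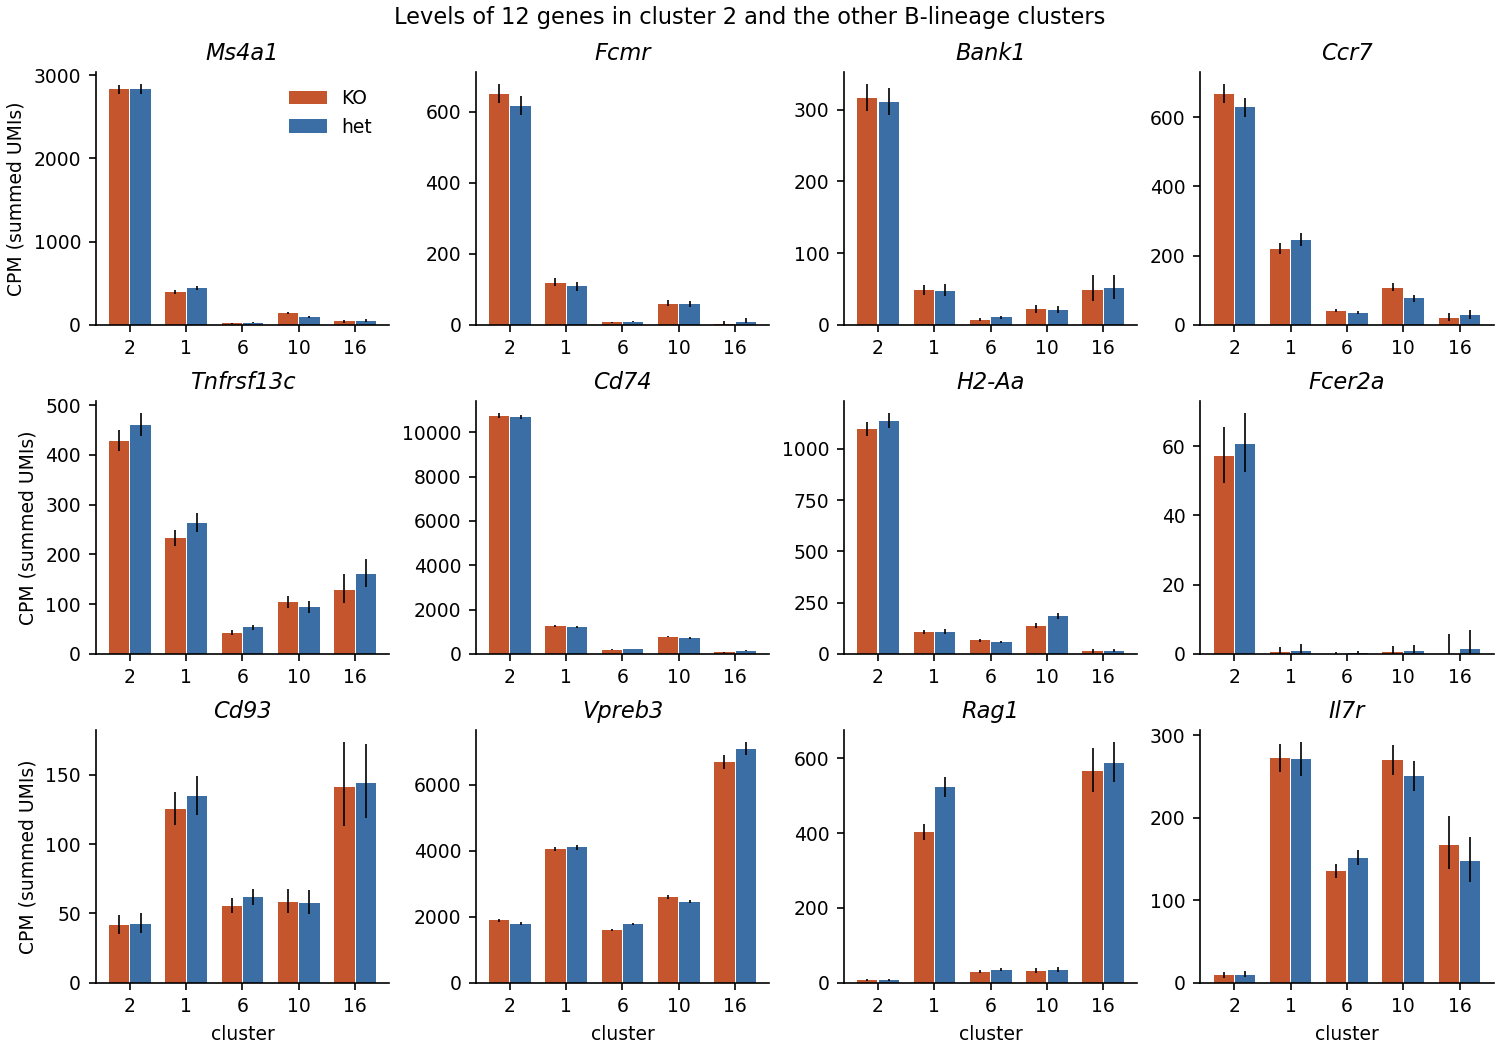
Levels of 12 genes in cluster 2 and in the other B-lineage clusters 1, 6, 10 and 16 (x axis), as UMIs summed over the cells and scaled to CPM (y axis from 0), with exact 95% Poisson intervals; KO is left of het. The 5 markers, Cd74, H2-Aa and Fcer2a stand highest in cluster 2, and Rag1 and Il7r stand lowest there, in both libraries.

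Genes of earlier stages were low. Rag1 had 7.06 CPM in KO and 7.57 CPM in het, against 402 and 523 CPM in cluster 1. The IL-7 receptor Il7r had 9.32 CPM in KO and 9.99 CPM in het, against 272 and 271 CPM in cluster 1. Of the 12 pro-B and pre-B genes listed, only Bcl7a, Sox4 and Myb passed the minimum used for genotype comparisons, set at 100 UMIs in both libraries together and detection in 10% of cells in at least 1 library. Cd93 was still present, at 41.8 CPM in KO and 42.7 CPM in het, below the 125 and 135 CPM of cluster 1. Vpreb3, a partner of the immature B cell receptor chain, had 1892 CPM in KO and 1790 CPM in het, against 4058 and 4104 CPM in cluster 1.

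Genes of mature naive B cells were present in part of the cells. Fcer2a had 57.1 CPM in KO and 60.5 CPM in het, and a UMI in 100 of 666 KO cells and 87 of 611 het cells. In cluster 1 it had a UMI in 2 of 829 KO cells and 2 of 646 het cells. Cr2, the complement receptor of follicular and marginal zone cells, had a UMI in 6.61% of KO and 5.89% of het cells, and Cxcr5, which guides B cells to follicles, in 40.1% of KO and 42.2% of het cells. Heavy and light chain genes were not analysed here, so isotype is not given.

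Markers of T cells, macrophages and endothelial cells were low, while stromal genes, described further on, were not. Of the 8 T, NK and ILC genes in the table, 1 in KO and 2 in het were at 0, and their summed level was 6.50 CPM in KO and 8.78 CPM in het. The 9 macrophage genes summed to 309 CPM in KO and 269 CPM in het, against 41750 CPM in the KO cells of cluster 3, and no member was at 0. The 5 endothelial genes summed to 73.4 CPM in KO and 93.5 CPM in het. Plasma cell genes were low in nearly all cells, and Jchain, the joining chain of secreted antibody, had 3 UMIs in KO and 572 in het, 571 of them in 1 het cell, a cell chosen after its values were seen. That cell held 0 UMIs of Ms4a1 and Pax5, 121 of Mzb1 and 9 of Tnfrsf17, which is the BCMA receptor of plasma cells, so it goes against the label.

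MHC class II genes were among those with the largest ratios of cluster 2 to the other B-lineage clusters. Among the 20 genes with the largest ratio of their level in cluster 2 to that in clusters 1, 6, 10 and 16 together (5 CPM added to each, a UMI in 25% of cluster 2 cells), 5 were of the class II list, namely Cd74, H2-DMb2, H2-Eb1, H2-Aa and H2-DMa. The genes that could be ranked numbered 2299, and 8 of them were of the class II list. Both counts rest on detection in cluster 2 and on cells clustered by expression, so they describe the cluster and test nothing. Ms4a1 led with a ratio of 21.4, followed by Cd74 with 19.9, H2-DMb2 with 18.2, H2-Eb1 with 14.6 and Fcmr with 13.7. Cd74 had 10754 CPM in KO and 10697 CPM in het in cluster 2. H2-Aa, a class II alpha chain, had 1096 CPM in KO and 1136 CPM in het. H2-Ab1, the beta chain that pairs with it, had a UMI in 74.5% of KO and 71.4% of het cells. H2-DMb2, part of the peptide loading complex, had 198 CPM in KO and 209 CPM in het. H2-DMb2 and its neighbour H2-DMb1 are close copies, so counts may be split between them. Other leading genes were Ifi30, a thiol reductase of antigen processing (ratio 11.1), Cd83, which stabilises class II at the surface (11.7), the inhibitory receptor Btla (8.83) and lymphotoxin beta, Ltb (7.93). The class II level stayed below that of clusters 14 and 11, where H2-Aa had 8167 and 5807 CPM in KO and 7854 and 4691 CPM in het.

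The share of these cells was close in the libraries. Cluster 2 made up 10.1% of annotated KO cells (666 of 6594, exact Clopper-Pearson interval 9.38% to 10.9%) and 10.3% of annotated het cells (611 of 5950, 9.51% to 11.1%). Of the B-lineage cells of clusters 1, 2, 6, 10 and 16 it made up 30.7% in KO (28.8% to 32.7%) and 31.7% in het (29.6% to 33.8%). The KO over het ratio of these shares was 0.984 (0.880 to 1.10) among annotated cells and 0.969 (0.867 to 1.08) among B-lineage cells. The spread between animals is unknown. The sort mix sets the share of lymphocytes in part, so the share among B-lineage cells is the closer comparison.

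Transcripts of cycling cells were found in a small share of cells. A UMI of Mki67 or Top2a, which mark cycling cells, was found in 62 of 666 KO cells (9.31%, 7.21% to 11.8%) and 47 of 611 het cells (7.69%, 5.71% to 10.1%). Cells with over 10000 UMIs, 32 in KO and 39 in het, held 20 of those KO cells and 19 of those het cells. In cluster 1 the share was 5.43% in KO and 7.28% in het. Of the 17 cell cycle genes listed, 5 passed the minimum, with a median log2 ratio of -0.20, against -0.02 over all 5142 genes tested. This median depends on the detection minimum, since over all 17 members, each with at least 20 UMIs, it was 0.48, with 12 of 17 above 1 and sums of 1380 CPM in KO and 1205 CPM in het. The mitotic genes were detected in too few cells to pass. Ccnb1, the cyclin of mitotic entry, had 113 UMIs in KO and 45 in het, in 3.75% of KO and 2.45% of het cells, and Mki67 had 205 UMIs in KO and 124 in het, in 5.11% and 3.93% of cells.

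Between the genotypes most genes of cluster 2 lay close together. Of 5142 genes past the minimum, 63 were at least 1.5-fold higher in KO (1.23% of genes tested) and 33 were at least 1.5-fold lower (0.642%), and 98.1% lay within that fold. For the genes named in this comparison the ratio is given as KO over het with its conditional binomial interval. A ratio whose interval excludes 1 says that the 2 sums of UMIs differ beyond counting error, which 297 genes did upward (5.78%) and 412 downward (8.01%).

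**Figure D2:**
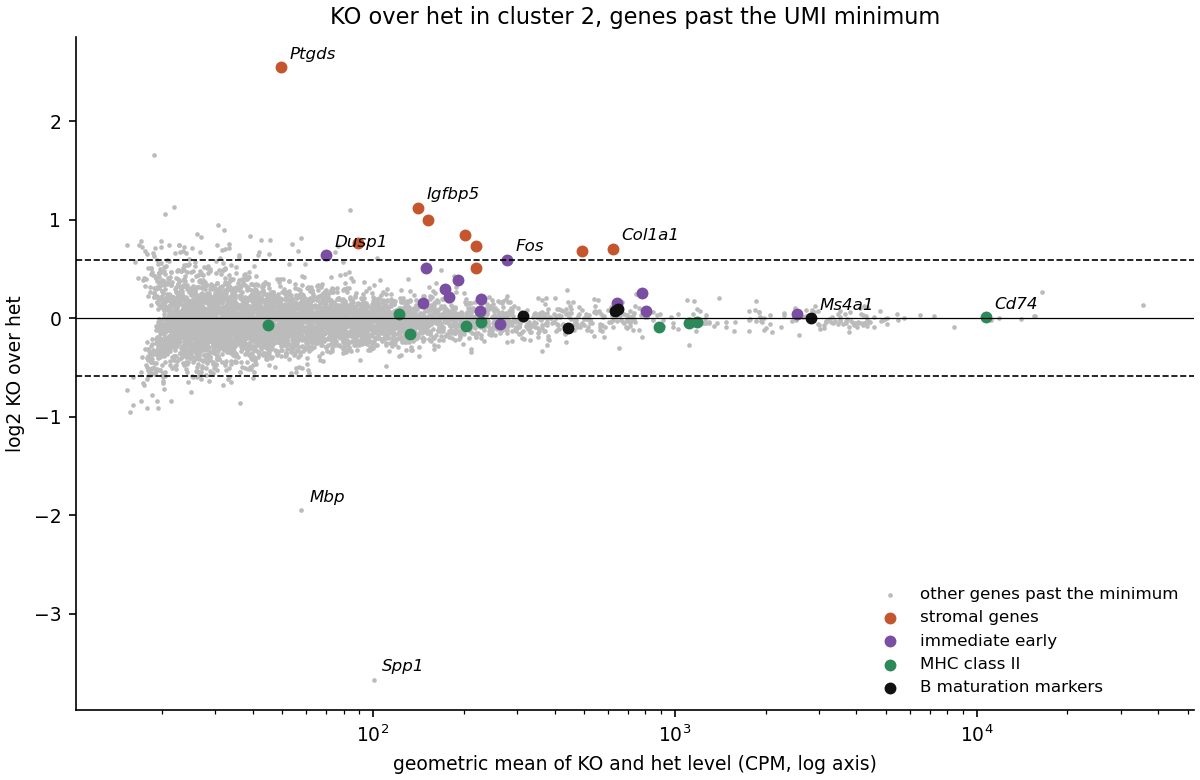
Log2 KO over het ratio (y axis) against the geometric mean of the KO and het levels (x axis, CPM, log scale) for the 5142 genes past the minimum in cluster 2; dashed lines mark a 1.5-fold difference. Markers and MHC class II genes lie near 0, stromal genes lie above the upper line with 1 exception, and Spp1 and Mbp are the lowest points.

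The B cell genes did not pass the 1.5-fold threshold, and neither did 98.1% of all genes tested. Ms4a1 had a ratio of 0.999 (0.971 to 1.03), Fcmr 1.05 (0.992 to 1.12), Bank1 1.02 (0.934 to 1.11), Ccr7 1.06 (1.00 to 1.13) and Tnfrsf13c 0.932 (0.868 to 1.00). The 12 B lineage core genes include the receptor chains Cd79a and Cd79b and the factors Pax5 and Ebf1. Of these 12, 5 had an interval wholly above 1, beside 5.78% of all genes tested. An interval wholly below 1 was found for 1 of 12, beside 8.01%, and none was past 1.5-fold in either direction. Fcrla was highest of them, with 489 CPM in KO and 436 CPM in het (1.12). None of the 13 B cell transcription factors that passed the minimum, of 14 listed, was past 1.5-fold, from 0.969 for Spib to 1.13 for Bach2. The same was true of the 7 immature and transitional genes, from 0.980 for Cd93 to 1.09 for Akap12, and for the 9 measured follicular genes, from 0.838 for Cxcr5 to 1.15 for Bcl2.

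MHC class II genes did not differ by 1.5-fold, and neither did 98.1% of all genes tested. The 9 measured genes ranged from 0.893 for H2-Ob to 1.03 for H2-Oa, both genes of the peptide loading regulator, and 8 of the 9 intervals held 1. H2-Eb1, a class II beta chain, was the exception, at 857 CPM in KO and 911 CPM in het (ratio 0.941, 0.894 to 0.990). The sex label rests on Xist and is imperfect, since 32 of 304 female-labelled KO cells and 32 of 341 female-labelled het cells held a Y-linked UMI. Among cells with the female label the median log2 ratio of the class II genes was 0.04 and among cells with the male label -0.16. Of the 10 MHC class I genes 1 was past 1.5-fold, the nonclassical gene H2-Q7, with 39.5 CPM in KO and 23.6 CPM in het (ratio 1.68, 1.26 to 2.24). H2-Q7 has near-identical neighbours in the Qa region, so reads may have been split between copies.

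The 14 listed kinases and adaptors that carry the B cell receptor signal lay within 1.5-fold, as did 98.1% of all genes tested. Of their intervals, 10 of 14 held 1. Wholly below 1 lay 4 of 14, beside 8.01% of all genes tested, and wholly above 1 lay 0, beside 5.78%. A ratio below 1 was found for 10 of 14, beside 56.3% of all genes tested. Syk, the kinase that binds the receptor, had 289 CPM in KO and 322 CPM in het (ratio 0.897, 0.823 to 0.979), and Lyn, which phosphorylates it, 353 CPM in KO and 386 CPM in het (0.917, 0.847 to 0.992). Blk had 149 CPM in KO and 171 CPM in het (0.871, 0.772 to 0.982), and Plcg2, the phospholipase that follows, 90.7 CPM in KO and 106 CPM in het (0.854, 0.731 to 0.996). These 4, chosen by their intervals over all cells, had ratios below 1 among female and among male cells. Those cells are parts of the same sums, so this is no independent check. The 6 measured genes of BAFF and APRIL receptors and signalling had a median log2 ratio of -0.13 and none was past 1.5-fold. Traf2, an adaptor of these receptors, was lowest at 18.1 CPM in KO and 25.7 CPM in het (0.703, with an interval wholly below 1).

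Receptors for cytokines and for migration cues that passed the minimum lay within 1.5-fold as well. The IL-33 receptor Il1rl1 had 8 UMIs in KO and 9 in het, in 1.20% and 0.982% of cells, whereas in cluster 9 it had 123 CPM in KO and 199.8 CPM in het. Of 9 measured cytokine receptor genes 9 had an interval that held 1. Most genes did, since 5.78% of all genes tested had an interval wholly above 1 and 8.01% wholly below. Il4ra, the IL-4 receptor, was lowest of the 9 at 31.1 CPM in KO and 39.9 CPM in het (ratio 0.778, 0.598 to 1.01). Cxcr5 had 104 CPM in KO and 124 CPM in het (0.838, 0.726 to 0.967), and Cxcr4, which holds B cells in the marrow and at sites of CXCL12, 194 CPM in KO and 159 CPM in het (1.22, 1.09 to 1.37). Both lay within 1.5-fold, as did 98.1% of all genes tested. Of the 11 measured migration and adhesion genes, 8 had an interval that held 1, 2 wholly above 1 and 1 wholly below.

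**Figure D3:**
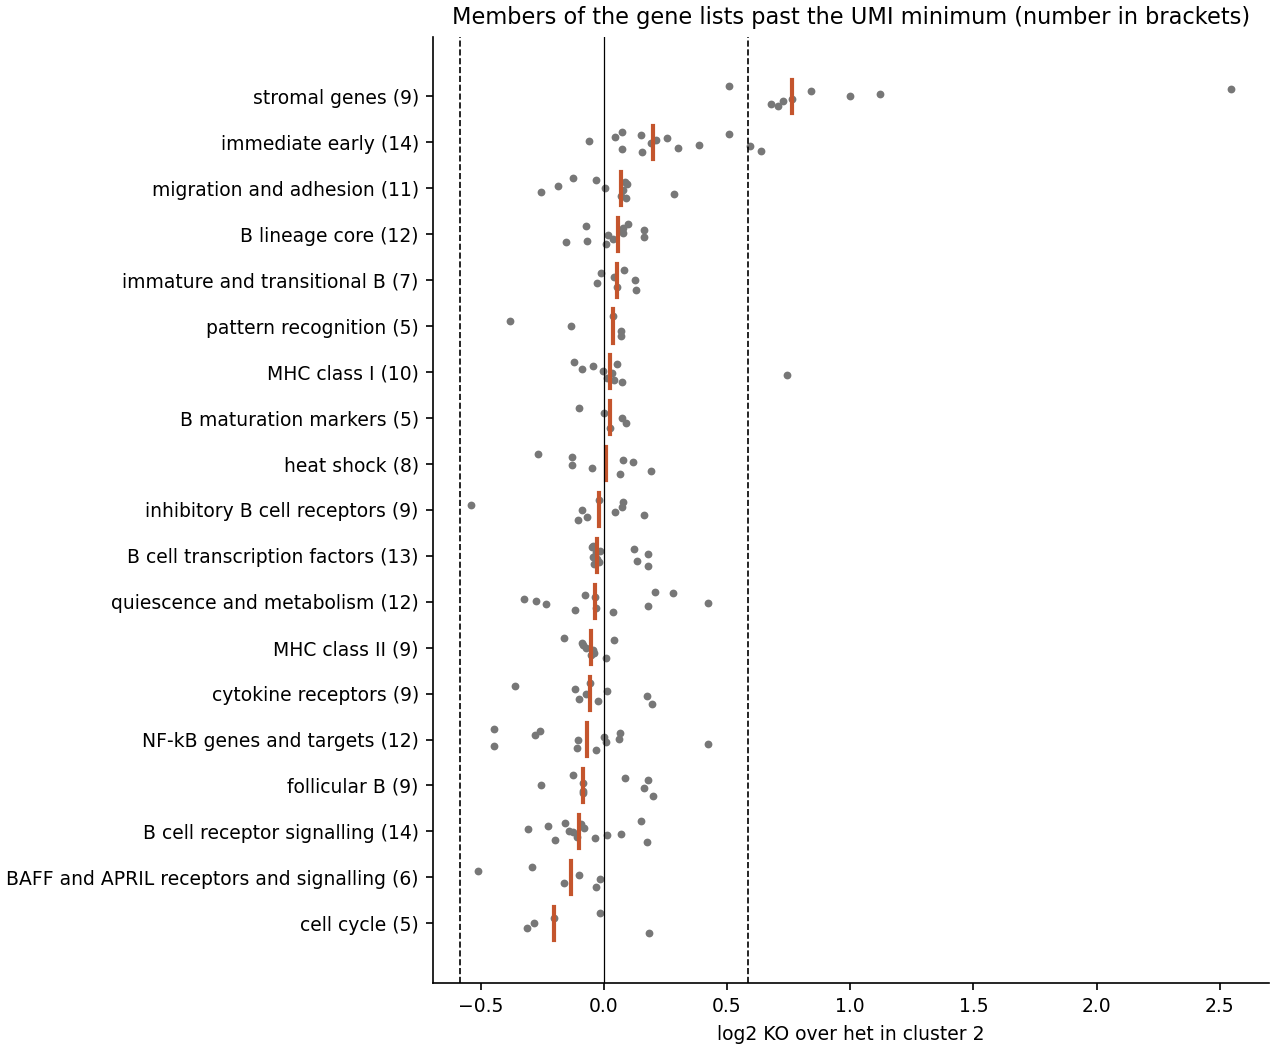
Log2 KO over het ratio in cluster 2 (x axis) of each list member past the minimum (points), for the lists with at least 5 such members (rows, number in brackets); the short bars are medians and the dashed lines mark a 1.5-fold difference. The stromal list has its median at 0.76 and the immediate early list at 0.20, and the medians of the other lists lie between -0.20 and 0.07.

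Immediate early genes, which cells switch on within minutes of a stimulus or of handling, were higher in KO. Of the 16 listed, 14 passed the minimum, 2 were at least 1.5-fold higher, 13 had a ratio above 1 (43.7% of all genes tested did) and 1 below, and 10 had an interval wholly above 1 (5.78% did). Fos had 342 CPM in KO and 226 CPM in het and a UMI in 58.1% of KO and 45.0% of het cells (ratio 1.51, 1.38 to 1.66). Dusp1, a phosphatase that shuts off MAP kinases, had 87.0 CPM in KO and 56.0 CPM in het (1.55, 1.29 to 1.88). Nr4a1, a nuclear receptor induced by antigen receptor signals, had 179 CPM in KO and 126 CPM in het (1.42, 1.25 to 1.61), and Egr1 193 CPM in KO and 157 CPM in het (1.23, 1.10 to 1.38).

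The members differed in size of effect and between sex labels. Jund had 2574 CPM in KO and 2496 CPM in het (1.03), and Ier5 259 CPM in KO and 270 CPM in het (0.960, 0.874 to 1.05). Fos had a ratio of 1.42 in female and 2.07 in male cells, and Fosb 1.06 and 1.82. The median of the list over clusters was not of 1 sign, since it was 0.23 on the log2 scale in cluster 2 over members with 20 UMIs, 0.19 in cluster 1, 0.01 in cluster 6, -0.26 in cluster 10 and -0.53 in cluster 0. The 8 measured heat shock genes, chaperones that cells make under stress, had a median log2 ratio of 0.01.

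Genes of stromal cells made up most of the genes that were higher in KO. Of the 63 genes past 1.5-fold upward, 35 (55.6%) had a level in the stromal clusters 0, 4, 5 and 7 at least 5-fold above that in cluster 2, as did 115 of all 5142 genes tested (2.24%) and 0 of the 33 lower ones. Of the 10 listed stromal genes 9 passed the minimum and 8 of these 9 were past 1.5-fold, while the tenth, Apod, had 101 UMIs in KO and 49 in het but was detected in only 8.11% of KO and 7.69% of het cells, under the minimum of 10%. Their levels summed to 2922 CPM in KO and 1691 CPM in het, far below the 75324 CPM in KO and 74541 CPM in het of cluster 0.

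Collagen transcripts were found in most cells. Col1a1, a fibrillar collagen chain, had 797 CPM in KO and 489 CPM in het, with a UMI in 636 of 666 KO cells and 508 of 611 het cells (ratio 1.63, 1.53 to 1.73). Igf2, the fetal growth factor, had 216 CPM in KO and 108 CPM in het (2.00, 1.76 to 2.28). Igfbp5, which binds it, had 208 CPM in KO and 95.6 CPM in het (2.17, 1.90 to 2.49), and Mgp, matrix Gla protein, 269.8 CPM in KO and 151 CPM in het (1.79, 1.60 to 2.00). Ptgds, prostaglandin D synthase of meningeal stroma, had 120.1 CPM in KO and 20.6 CPM in het (5.83, 4.51 to 7.65), but 185 of its 425 KO UMIs were in 1 cell, and with the highest cell left out on both sides the ratio was 3.80. In cluster 0 itself the ratio of Col1a1 was 0.964, of Igf2 1.01 and of Igfbp5 1.23.

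The stromal list moved with the library in many clusters and not in 1 direction. Its median log2 ratio over members with 20 UMIs was 0.80 in cluster 2, 0.64 in cluster 1, 0.36 in cluster 6, 0.85 in cluster 16 and -1.15 in cluster 10. It was above 0 in 13 of 22 clusters, and cluster 2 was the sixth highest. With genes no higher in clusters 0, 4, 5 and 7 than in cluster 2 alone, a choice made after seeing the data, 12 of 3309 genes were higher (0.363%) and 22 lower (0.665%). The part of free RNA in these levels was not tested. Without the cells in the top 10% of Scrublet doublet scores the ratio of Col1a1 was 1.93.

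**Figure D4:**
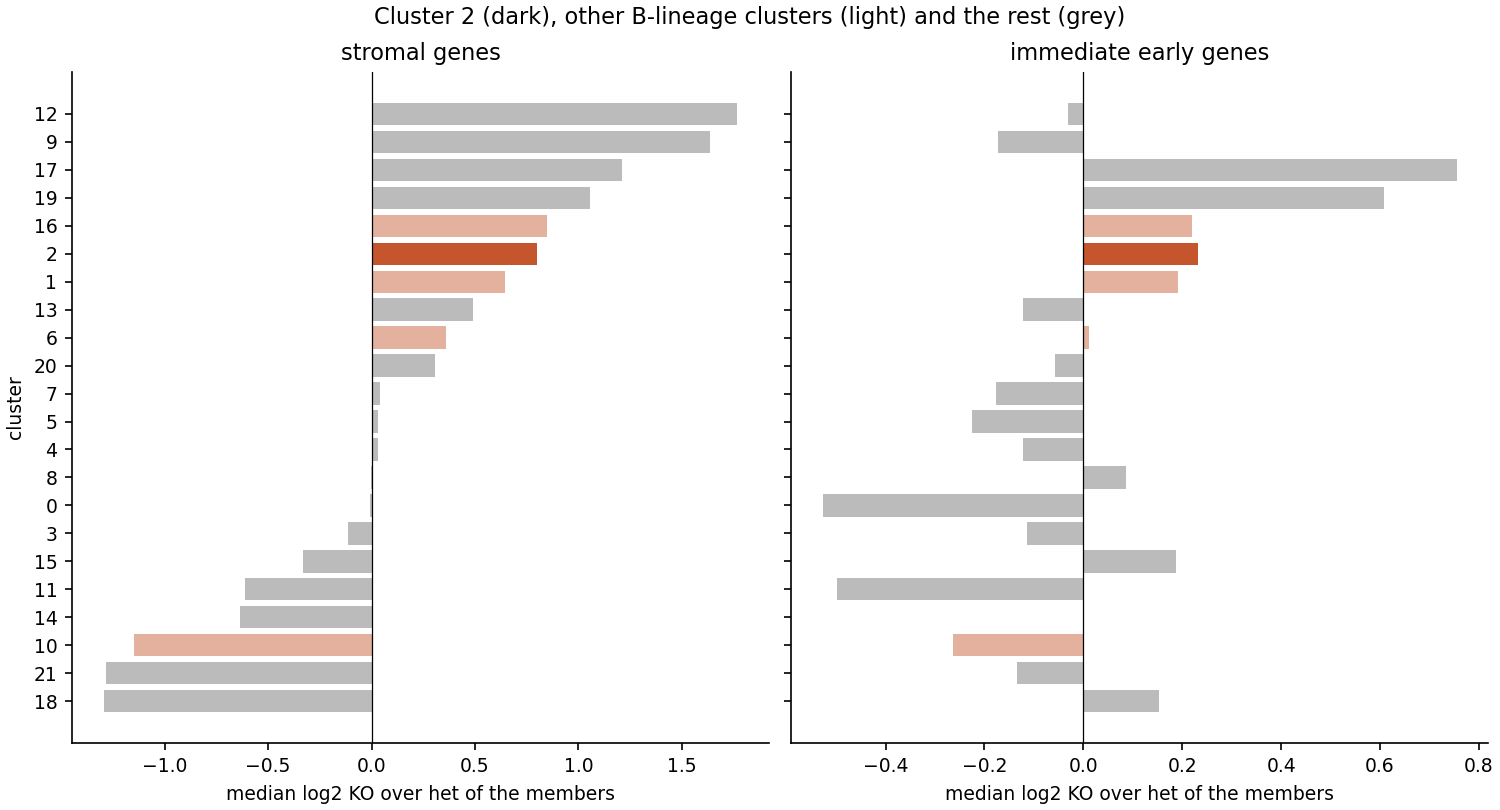
Median log2 KO over het ratio (x axes) of the stromal and the immediate early genes with at least 20 UMIs in each of the 22 clusters (rows, ordered by the stromal median); cluster 2 is dark, the other B-lineage clusters light, the rest grey. Cluster 2 stands at 0.80 for stromal and 0.23 for immediate early genes, cluster 10 at -1.15 and -0.26.

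The other 28 of the 63 higher genes were not 5-fold higher in clusters 0, 4, 5 and 7. Among these were genes of neutrophils. The neutrophil proteins S100a8 and S100a9 had 29.7 and 43.2 CPM in KO and 14.2 and 25.7 CPM in het (ratios 2.09 and 1.68), spread over 91 and 127 KO cells and 46 and 75 het cells. The neutrophil list summed to 97.5 CPM in KO and 58.4 CPM in het, with none of its 8 members at 0 in either library, and its part in this result was not tested. The 15 genes named upward also held fibronectin, Fn1 (3.15), the noncoding RNA Meg3 (2.14), Ogn (1.93), Dcn (1.70), Fstl1 (1.76) and Mfap4 (1.66). These 6 also had a far higher level in clusters 0, 4, 5 and 7 than in cluster 2, and Dcn is a member of the stromal list.

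Of the remaining lists none had a member past both the minimum and 1.5-fold, and 98.1% of all genes tested lay within that fold. Members under the minimum were not compared. The 12 measured NF-kB genes had a median log2 ratio of -0.07 and ran from 0.734 for Tnfaip3 to 1.34 for Myc, and the 9 inhibitory receptors one of -0.02, with Pirb lowest at 21.5 CPM in KO and 31.2 CPM in het. The 12 genes of quiescence and metabolism had a median of -0.03, and the 4 interferon-induced genes that passed the minimum, of 12 listed, one of -0.02.

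The genes past 1.5-fold downward, 33 of 5142 tested (0.642%), included no member of the B cell lists. With so low a share over all genes, this absence says little about those lists. Spp1, osteopontin, had 28.2 CPM in KO and 359 CPM in het (ratio 0.0786), but 1132 of its 1187 het UMIs were in 1 cell, and with the highest cell left out on both sides the ratio turned to 1.66. Mbp, a protein of myelin, had 29.4 CPM in KO and 113 CPM in het (ratio 0.259, 0.206 to 0.322). Its ratio was 1.08 in female cells and 0.101 in male cells. Mcm6, a subunit of the replicative helicase, had 26.8 CPM in KO and 48.7 CPM in het (0.551, 0.423 to 0.714).

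Further genes named downward had low counts in both libraries. Orc3, a subunit of the origin recognition complex, had 40 UMIs in KO and 72 in het (0.519, 0.343 to 0.774). Wdr36, a ribosome biogenesis factor, had 46 in KO and 81 in het (0.530, 0.361 to 0.770), and Prex1, a Rac activator, 115 in KO and 164 in het (0.655, 0.511 to 0.836). Klhdc4, Prr3, Tbcel, Bcap29, Kcnab2, Rrad, Nudcd2 and Cherp had ratios from 0.544 to 0.640. Among abundant genes under the fold threshold, Npm1, a nucleolar protein of ribosome assembly, had 1010 CPM in KO and 1224 CPM in het (0.825, 0.789 to 0.863), and Ldha, lactate dehydrogenase, 216 CPM in KO and 254 CPM in het (0.850, 0.770 to 0.939).

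Cells of cluster 2 were grouped by their UMIs of Fcer2a and Cd93, and the shares of the groups were close in the genotypes. Both genes are low and most cells held neither, so the groups do not show separate kinds of cell. Among cells with at least 2000 UMIs, 12.9% of KO (85 of 657) and 12.2% of het cells (74 of 605) had a UMI of Fcer2a and none of Cd93, and 15.7% of KO (103) and 15.4% of het cells (93) the reverse. A UMI of both was found in 15 KO and 13 het cells, and neither in 454 KO and 425 het cells. Median depth was 5172 UMIs in KO and 5309.5 UMIs in het in the Fcer2a cells, and 4605 UMIs in KO and 4348 UMIs in het in the Cd93 cells. The shares of cells with a UMI compared here are therefore those expected after thinning each cell to 2000 UMIs. They are a description with no test, since cells of 1 library are not replicates.

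The Fcer2a cells carried more class II and lymphotoxin transcripts. Ltb was expected in 71.2% of Fcer2a cells and 38.2% of Cd93 cells, with a difference of 30.7 points in KO and 35.8 points in het. H2-Aa was expected in 67.4% of Fcer2a cells and 43.6% of Cd93 cells, with 57.0% in cells with neither, and H2-Eb1 in 63.4% and 41.1%. As a level H2-Aa had 1621 CPM in Fcer2a cells and 737 CPM in Cd93 cells. Over the cluster H2-Aa was uneven, with 0 UMIs in 32.7% of KO and 35.2% of het cells, a median of 3 and a maximum of 42 in KO and 43 in het, whereas Cd74 was at 0 in 1 KO cell and 0 het cells. All 9 class II genes measured were more frequent in Fcer2a cells, against 46.3% of 4920 genes, with the same sign in both libraries.

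NF-kB genes followed the same order. Of 12 measured, 12 were more frequent in the Fcer2a cells, in both libraries, with a median difference of 7.20 points against -0.27 over all genes. Cd83 was expected in 40.7% of Fcer2a cells and 19.4% of Cd93 cells, Nfkb1, the p50 precursor, in 31.2% and 20.6%, and Tnfaip3, the inhibitor A20, in 10.8% and 3.38%. Gpr183, the oxysterol receptor that positions B cells, was expected in 18.3% and 6.86%, and Myc in 10.5% and 3.57%. Cd40, through which T cells help B cells, was expected in 23.7% and 11.3%.

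The Cd93 cells kept genes of immature B cells. All 6 measured genes of the immature and transitional list other than Cd93 were less frequent in Fcer2a cells (53.7% of all genes were), 5 of them in both libraries. Vpreb3 was expected in 64.6% of Fcer2a cells and 93.1% of Cd93 cells, Chchd10, a mitochondrial protein, in 52.5% and 84.2%, and Akap12, a kinase anchor, in 11.4% and 33.1%. Cd24a, the heat-stable antigen of young B cells, was expected in 62.4% and 77.2%, and the precursor gene Bcl7a in 11.3% and 25.4%. Cd72, an inhibitory co-receptor, and Atp1b1, a sodium pump subunit, were among the 10 genes with the largest differences, at 47.8% and 71.8% and at 8.59% and 32.6%. The cluster's own markers had no common direction. Fcmr was expected in 72.8% of Fcer2a cells and 56.3% of Cd93 cells, Ccr7 in 64.5% and 58.6%, and Ms4a1 in 95.4% and 98.1%, with the same sign in both libraries. Bank1 differed by 7.08 points in KO and -5.71 points in het, and Tnfrsf13c by 3.35 points in KO and -10.9 points in het, so both had opposite signs in the libraries.

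**Figure D5:**
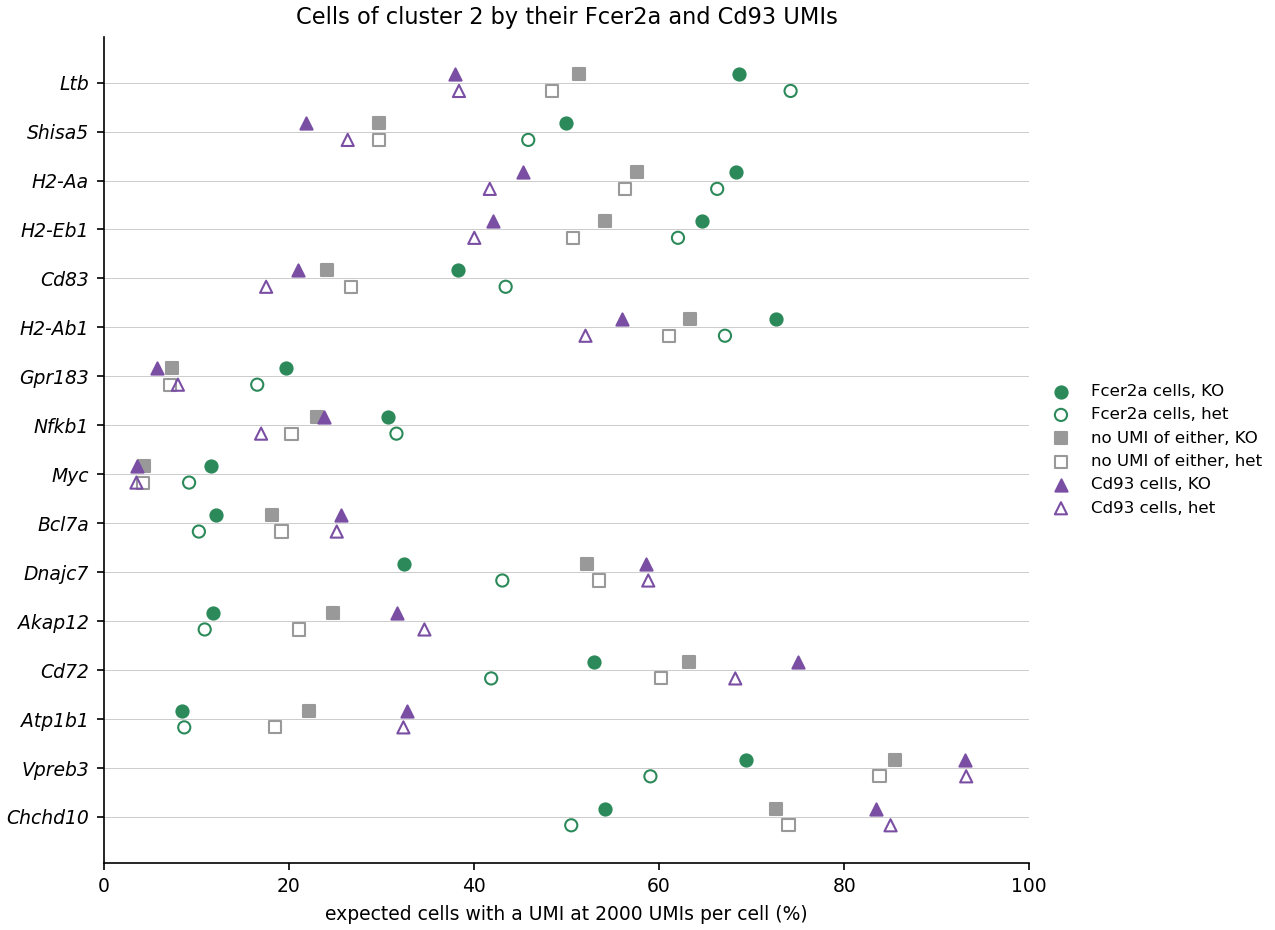
Expected share of cells with a UMI after thinning to 2000 UMIs per cell (x axis, %) for the 10 genes that differ most between Fcer2a and Cd93 cells of cluster 2 and for 6 further list members (rows); circles are Fcer2a cells, squares cells with neither, triangles Cd93 cells, filled for KO and open for het. From Ltb at the top to Chchd10 at the bottom, the filled and the open symbols of each gene run in the same direction from Cd93 cells to Fcer2a cells.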

How the data were processed

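Single-cell counts came from 1 KO and 1 het library of 10x Genomics droplets, and the submitters' processing notes name Cell Ranger 3.0.2 and mm10. The sources used here do not give the filter behind the annotated cells. Whole UMI counts per gene and cell were deposited by the authors, who added metadata with each cell's library, cluster number, sex label and the percent of mitochondrial UMIs, which the authors computed. In every cluster 2 cell the sex label matched whether Xist had a UMI, so a shallow female cell may be labelled male. Conversely 32 of 304 KO and 32 of 341 het cells with the female label held a Y-linked UMI. No table column lacked a sample (0). In cluster 2 the deposited table and the matrices differed in 29 values in KO and 26 in het.

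UMIs were summed over the cells of a cluster and library and scaled to CPM. Intervals (95%) are exact Poisson for levels, Clopper-Pearson for shares and conditional binomial for ratios; the last is approximate for ratios of cell shares. PCR duplicates are collapsed by UMI, and all intervals cover counting error only. Genes were compared from 100 UMIs in both libraries together and detection in 10% of cells in at least 1 library, at a 1.5-fold threshold; 3 counts stand for a count of 0. Named genes are the first 15 in each direction ranked by the interval bound nearest 1 (without mitochondrial, ribosomal protein, hemoglobin, immunoglobulin, T cell receptor, Xist, Y-linked and predicted genes), the 20 leading genes, all members of 33 lists and 10 genes that differ between Fcer2a and Cd93 cells. A few genes that the rule names are not reported here. Members and lists were chosen with earlier results of these data known. Expected shares after thinning to 2000 UMIs are hypergeometric and leave out 9 KO and 6 het cells. Scrublet (in scanpy 1.11.5) called 1 KO and 3 het cells in the libraries, too few to be used, so the top 10% of scores, 17 KO and 18 het cells of cluster 2, were left out as an alternative. The calculation was tested on simulated data. Python 3.11.15, numpy 2.4.6, scipy 1.17.1 and pandas 2.3.3 were used. Alternatives were other scalings, matrices, sexes, depth, UMI minimums and folds. Coordinates are from the GRCm38 annotation, and the stromal comparison used clusters 0, 4, 5 and 7.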

Additional observations from a re-analysis of the deposited data

Results flagged for a closer look

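In cluster 2 the KO over het ratio of 2 genes was past 1.5-fold in opposite directions in cells with the female and with the male label, and the difference was not tested. Gpr183, an oxysterol receptor that positions B cells, had a ratio of 0.662 in female cells and 2.13 in male cells, and 1.05 (0.865 to 1.29) over both. Nfkbiz, a regulator of NF-kB, had 0.558 in female cells and 1.62 in male cells, and 0.823 (0.620 to 1.09) over both; 26 of its 110 het UMIs were in 1 cell, and without the top cell of each library its ratio was 1.03. Meninges were pooled per sex, so the sexes are also separate pools of mice. The label is imperfect in both directions, since 32 of 304 KO and 32 of 341 het cells labelled female held a Y-linked UMI, and 132 of 362 KO and 107 of 270 het cells labelled male held none.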

How the results depend on the processing

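No paired analysis was possible because each genotype has 1 library, and for the same reason no library could be left out. Light chain and isotype shares were not run. The KO over het ratios of the 2 cell shares stayed within the main intervals under every alternative tried. In the main setting 63 of 5142 genes were higher in KO (1.23%) and 33 lower (0.642%). A minimum of 400 UMIs gave 16 and 2 of 2318 genes (0.690% and 0.0863%). No minimum beyond 1 UMI in each library gave 1879 and 1286 of 13371 (14.1% and 9.62%). Of the same 5142 genes, there were 7 and 2 at a fold of 2, and 8 and 2 with the whole interval past the fold. Female cells alone gave 50 higher and 55 lower genes of 4169 (1.20% and 1.32%), and male cells alone 69 and 42 of 3856 (1.79% and 1.09%). With the mean of per-cell CPM, 8 levels of the 5 markers in the 2 libraries moved outside the main interval and 2 stayed. Over all alternatives 88 values of list members moved and 1613 stayed. Genes no higher in clusters 0, 4, 5 and 7, chosen after seeing the data, gave 12 higher of 3309 (0.363%). Of the 30 genes ranked by the interval 2 turned direction: Mbp had 1.08 in female cells, and Spp1 had 1.44 in male cells, 1.61 without the top 10% of Scrublet scores and 1.66 without the top cell of each library. Of 270 values of these 30 genes, 241 stayed within the main interval, 25 moved outside it in the same direction and 4 turned; of 279 list medians 272 stayed. List members whose main interval holds 1, such as Gpr183 and Nfkbiz, are not counted as turning. Depth limits genes in few cells, such as the mitotic genes.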

Other observations

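A few cells of cluster 2 held some transcripts of B-1 cells, the innate-like B cells of early life; these genes were picked after their values were seen. Zbtb32 had a UMI in 3 KO cells and 8 het cells. Of these 11 cells, 72.7% also had an S100a6 UMI, 63.6% a Cd9 UMI and 54.5% a Plscr1 UMI, against 8.14%, 9.87% and 6.08% of the other cells. Cd5 had a UMI in 27.3% against 3.24%, Bhlhe41 in 54.5% against 19.9%, Ahr in 54.5% against 13.2%, and Itgam in 0 of the 11 cells against 1.34%. These shares are not thinned for depth, and the top Zbtb32 cell of each library held 8094 UMIs in KO and 14745 in het. Spn and Il5ra, also listed as B-1 genes, were not compared in this way. Il5ra had a UMI in 28 KO and 31 het cells of cluster 2. S100a6 had 146 UMIs in KO and 390 in het, with 42 and 131 of them in 1 cell of each library. Cd5 had a UMI in 3.45% of KO and 3.44% of het cells of cluster 2, and in 0.483% of KO and 0.155% of het cells of cluster 1. In cluster 6, whose cells are deeper, it had one in 4.27% of KO and 3.13% of het cells. With cells thinned to an equal depth, a Cd5 UMI was expected in 1.15% of KO and 1.10% of het cells of cluster 2. The same share was 0.317% in KO and 0.256% in het in cluster 6, and 0.244% and 0.0892% in cluster 1. At equal depth Cd5 was therefore found more often in cluster 2 than in clusters 1 and 6, though in few cells.

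Vpreb1, a surrogate light chain gene of pre-B cells, had 57 UMIs in KO and 6 in het, and 37 of the KO UMIs were in 1 cell with 22396 UMIs. Ccl22, a chemokine of activated B cells and dendritic cells, had 0 UMIs in KO and 9 in het, 7 of them in 1 cell.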
